A study of Homo sapiens with 8 samples.

Results

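The genes described here are those whose RNA was high in M4 cells alone among the 4 lines of the MCF10A breast cancer progression model. Protein-coding genes were taken whose lower M4 library was at least 3 times the highest of the other 6 libraries and at least 1 CPM (a gene's estimated reads per 1000000 reads of its library, not corrected for gene length). Of 16860 protein-coding genes with at least 1 count, 108 met both limits (0.641%). M1 is MCF10A, a line of mammary epithelial cells that became immortal on its own and forms no tumors. M2 (MCF10AT1k.cl2) was made from M1 by transfecting activated T24-HRAS and selecting through a xenograft. M3 (MCF10Ca1h) and M4 (MCF10CA1a.cl1, a clone) come from carcinomas that M2 xenografts formed, of which M3 forms mostly low-grade tumors and M4 poorly differentiated ones that can seed the lung. All lines share the MCF10A background, and poly A+ RNA was sequenced from biological duplicates grown for 8 days as acini in Matrigel. M1 and M2 had 10 ng/ml epidermal growth factor (EGF) in their medium and M3 and M4 had none, so a difference between line and EGF cannot be told apart when M3 or M4 is set against M1 or M2. Each line being a single derivation, values describe these lines and not a stage of disease.

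Several of these genes belong to well-studied programs. Cholesterol is built from acetyl-CoA through the mevalonate pathway, and cells switch its genes together through SREBP transcription factors. Squamous epithelia assemble a cornified envelope from small proteins encoded side by side in the epidermal differentiation complex on chromosome 1, and seal their cells with claudins and occludin. Interleukin-1 family ligands and their natural antagonists lie in a cluster on chromosome 2, and the ligands PD-L1 and PD-L2, which restrain T cells, are neighbors on chromosome 9.

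The libraries held 69669970 to 107350344 counts, and at that depth 3 counts correspond to 0.0279 to 0.0431 CPM. Spearman correlations between the duplicates were 0.9749 (M1), 0.9934 (M2), 0.9824 (M3) and 0.9865 (M4). The M2 duplicates were far more alike than the others, although they still differed by more than sampling noise: the median chi-square per gene was 1.923 in M2 against 11.74 to 22.39 in the other lines and 0.4549 under sampling noise alone. In the study's supplementary expression values the second M1 library and the first M2 library carry each other's line. The labels were kept here, membership does not depend on that choice, and for comparisons among M1, M2 and M3 the counts are given under both assignments while single-gene calls follow the labels. HRAS, the transfected gene, stood at 136 to 159 CPM in M1 and M2, 243 and 329.9 CPM in M3 and 354 and 362 CPM in M4. Of the basal markers, KRT5, KRT14 and TP63 fell and LAMB3 rose in M4 against the mean of the other lines, with summed levels of 7693 to 9434 CPM in M4 and 8556 to 14426 CPM elsewhere. Of 7 luminal markers, KRT18, EPCAM and PGR rose and MUC1 fell, with sums of 2969 to 4801 CPM in M4 and 1282 to 2268 CPM elsewhere. Of 5 immune cell markers, PTPRC, CD3E and MS4A1 had no count in M4 while CD68 rose and CD14 fell, the 6 fibroblast markers summed to 6.60 and 8.02 CPM in M4, and the 3 endothelial markers in the table summed to at most 0.401 CPM there. Adipocyte, neural and melanocyte markers summed to at most 4.48 CPM in M4, and the part of any other cell type in the results was not tested.

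For comparison, 18.5% of the 18431 genes tested had both M4 libraries above all others with no limit on the size of the gap. In the 108 genes the lower M4 library ran from 1.03 to 2148 CPM with a median of 12.1 CPM. The ratio of that library to the highest other library started at 3.02 by the rule and had a median of 4.68, reaching 5 in 45 genes and 10 in 15. The highest other library was an M3 library in 74 genes, an M1 library in 23 and an M2 library in 11. No gene was at 0 in all 6 other libraries, but 33 stayed under 1 CPM there. The same limits gave 59 genes for M3, 3 for M2 and 43 for M1. At the fold limit, ARHGAP29 (ratio 3.02), OLAH (3.04) and TMEM97 (3.04) were just inside and IDI1 (2.99), IRF7 (2.98) and TM7SF2 (2.94) just outside. At the level limit, PAPPA2 (1.03 CPM), IGFN1 (1.09) and MPO (1.10) were inside and HSPB8 (0.960), NECAB2 (0.960) and ADAMTS14 (0.829) outside.

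**Figure D1:**
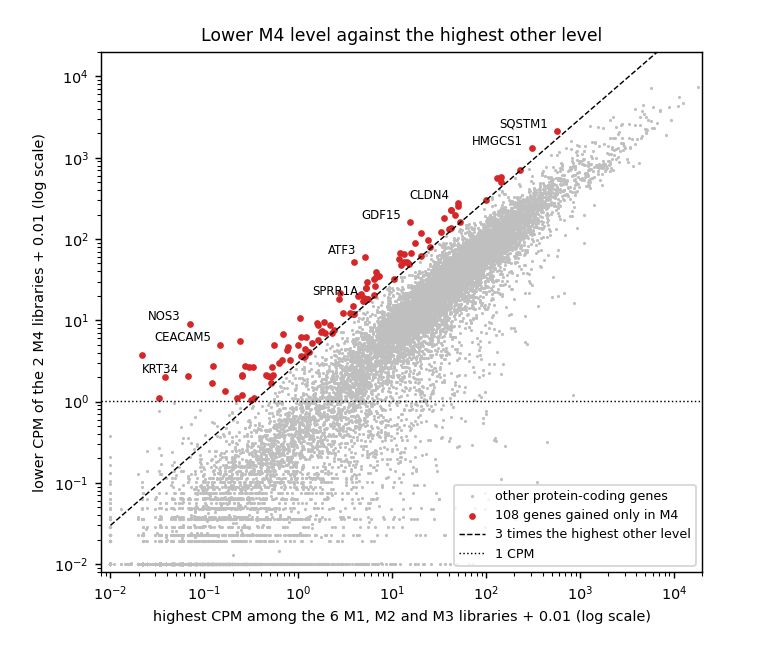
CPM of the lower M4 library (vertical axis) against the highest of the other 6 libraries (horizontal axis), both plus 0.01 on log scales, for every protein-coding gene in grey and the 108 chosen genes in red, with the limits of 3-fold (dashed) and 1 CPM (dotted). The chosen genes span 1.03 to 2148 CPM, and 33 of them lie below 1 CPM on the horizontal axis.

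The promoters below are examples from the set. CLDN4, SPRR1A and CEACAM6 all come from the group of squamous and epithelial barrier genes, and groups were not compared by their promoters. RefSeq promoters (GRCh38.p14) were matched for 84 of the 108 genes. Each line gives the 200 bases before the annotated start, 5′ to 3′ on the gene's own strand, for HMGCS1 (chr5:43313413-43313612, minus strand), CLDN4 (chr7:73830796-73830995, plus), SPRR1A (chr1:152983881-152984080, plus), INHBA (chr7:41703091-41703290, minus), CEACAM6 (chr19:41755330-41755529, plus) and ATG9B (chr7:151024500-151024699, minus). Capitals mark matches to the AP-1 motif TGANTCA, the TEAD motif GGAATG and the TATA box TATAAA, searched on both strands together with the CRE motif TGACGTCA.
HMGCS1: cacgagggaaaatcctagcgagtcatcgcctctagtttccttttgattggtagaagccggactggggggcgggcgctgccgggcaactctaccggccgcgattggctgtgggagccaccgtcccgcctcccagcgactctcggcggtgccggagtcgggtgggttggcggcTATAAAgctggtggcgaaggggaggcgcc
CLDN4: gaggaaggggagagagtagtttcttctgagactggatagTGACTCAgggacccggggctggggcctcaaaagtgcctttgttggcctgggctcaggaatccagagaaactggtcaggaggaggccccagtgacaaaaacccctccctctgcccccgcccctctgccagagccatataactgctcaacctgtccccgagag
SPRR1A: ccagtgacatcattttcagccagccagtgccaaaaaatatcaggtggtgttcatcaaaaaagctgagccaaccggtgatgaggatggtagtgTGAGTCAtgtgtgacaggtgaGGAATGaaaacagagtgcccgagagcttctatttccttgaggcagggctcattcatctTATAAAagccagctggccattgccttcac
INHBA: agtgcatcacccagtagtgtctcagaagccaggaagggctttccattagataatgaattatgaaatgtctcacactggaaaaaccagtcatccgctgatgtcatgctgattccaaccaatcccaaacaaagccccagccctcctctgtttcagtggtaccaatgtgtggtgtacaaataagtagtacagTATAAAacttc
CEACAM6: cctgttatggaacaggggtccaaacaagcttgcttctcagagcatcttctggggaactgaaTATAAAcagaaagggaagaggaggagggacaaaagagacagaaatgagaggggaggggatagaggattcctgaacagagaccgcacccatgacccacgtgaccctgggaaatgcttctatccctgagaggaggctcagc
ATG9B: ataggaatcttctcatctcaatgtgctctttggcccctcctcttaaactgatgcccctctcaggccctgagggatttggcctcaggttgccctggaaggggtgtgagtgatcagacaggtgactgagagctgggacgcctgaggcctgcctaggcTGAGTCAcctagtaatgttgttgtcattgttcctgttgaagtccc
The HMGCS1 promoter held 20 CpG dinucleotides, the CLDN4 promoter 3, SPRR1A and CEACAM6 2 each, and INHBA and ATG9B 1 each. In the full window of 250 bases before to 50 after the start, the AP-1 motif was found in 11 of 84 promoters, the TATA box in 11, the TEAD motif in 9 and the CRE motif in 3. Among the promoters of the other protein-coding genes tested, 4.99% held the AP-1 motif, 6.46% the TATA box, 11.1% the TEAD motif and 3.12% the CRE motif. CpG-poor promoters, with at most 5 CpG dinucleotides, made up 29 of the 84 (34.5%) and 9.76% of those other promoters. The comparison of the set with other genes is void because fewer than 80% of the 108 genes had a promoter, so these are counts only, and a match is not evidence of a bound site.

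Genes of cholesterol and lipid metabolism included some of the largest read counts of the set. HMGCS1, the HMG-CoA synthase at the entry of the mevalonate pathway, was at 1302 and 1676 CPM in M4, 191 and 309 in M3, 183 and 185 in M2 and 83.7 and 50.5 in M1. Under the labels its M1 libraries were the lowest. MVD, the decarboxylase that yields isopentenyl diphosphate, was at 644 and 569 CPM in M4, 117 and 130.3 in M3, 98 and 102 in M2 and 60.6 and 31.6 in M1. SC5D, a desaturase near the end of the pathway, reached 133 and 139.7 CPM in M4 against 17.8 to 40.8 CPM elsewhere. ACSS2 makes acetyl-CoA from acetate. Its levels were 632 and 508 CPM in M4, against 126 and 146 in M3, 53 and 58 in M2 and 79.5 and 54.6 in M1. TMEM97, the sigma-2 receptor, reached 160.3 and 203 CPM in M4 against 32.2 to 52.7 CPM elsewhere. Also in the group were the endothelial lipase gene LIPG, the acyltransferase MBOAT1 and the thioesterase OLAH.

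HMGCS1, MVD and SC5D were among 21 cholesterol synthesis enzymes listed, and the 17 that the rule had left out were tested. Of these, 14 rose in M4 against the mean of M1, M2 and M3 and 1 fell (edgeR quasi-likelihood test, Benjamini-Hochberg adjusted p under 0.05 and a change of over 1 on the log2 scale), where 7.58% of 18431 genes tested rose. FDPS, the farnesyl diphosphate synthase, was at 1193 and 1244 CPM in M4, 503 and 604 in M3, 320.0 and 318 in M2 and 178 and 132 in M1, a log2 difference of 1.94 (SE 0.126, adjusted p = 0.000115). CYP51A1, which demethylates lanosterol, reached 375 and 518 CPM in M4 against 57.5 to 149 CPM elsewhere (log2 difference 2.04, SE 0.177, adjusted p = 0.00032). IDI1 missed the fold limit of the set narrowly and rose by 2.22 on the log2 scale (SE 0.241, adjusted p = 0.000842). The exception was ACAT2, the cytosolic thiolase at the head of the pathway, at 0.54 and 0.572 CPM in M4, against 92.1 and 81.7 in M3, 57.2 and 54.6 in M2 and 39.4 and 19.9 in M1 (log2 difference -6.64, SE 0.352, adjusted p = 9.15e-05). ACAT2 was thus the enzyme of the list that went the other way, and its M4 libraries did not overlap any other. Among 5 regulators and targets tested, 2 rose and 1 fell. INSIG1, a known SREBP target, was 1 of the 2, rising by 2.25 (SE 0.264, adjusted p = 0.00121), while SREBF1 fell by 1.502 (SE 0.211, adjusted p = 0.00218) on the log2 scale.

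Stress response genes formed a second group of 7. SQSTM1, which encodes the autophagy receptor p62, was at 2315 and 2148 CPM in M4, 209 and 347 in M3, 311 and 314 in M2 and 575 and 385 in M1. ATF3, a stress-induced transcription factor, was at 87.9 and 59.3 CPM in M4, against 5.17 and 2.45 in M3, 1.71 and 1.66 in M2 and 1.97 and 2.33 in M1, a ratio of 11.5 between the lower M4 library and the highest other. The next highest library was an M1 library for SQSTM1 and an M3 library for ATF3. ATG9B, a relative of the autophagy lipid scramblase, was at 0.111 CPM or less in the other libraries and at 20.8 and 1.69 CPM in M4, so its M4 duplicates were far apart. CHAC1 (glutathione breakdown), OSGIN1, PLK3 and the phosphatase gene DUSP8 completed the group. ATF3 and CHAC1 belong to a list of 8 genes of the ATF4 pathway, the arm of the unfolded protein and amino acid response that acts through that factor. Of the other 6, DDIT3 (log2 difference 2.05, SE 0.257, adjusted p = 0.00145) and TRIB3 (1.71, SE 0.146, adjusted p = 0.000305) rose and DDIT4 fell by 1.68 on the log2 scale (SE 0.28, adjusted p = 0.00441).

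The 5 growth factor genes encode secreted proteins. INHBA, whose product dimerizes to activin A, was at 251 and 309 CPM in M4, 37 and 49.7 in M3, 19 and 19.6 in M2 and 3.21 and 4.61 in M1. Under the labels its levels did not overlap among M1, M2 and M3 and went up from M1 to M3, whereas M1 and M2 overlap if the doubtful libraries are exchanged. HBEGF, a ligand of the EGF receptor, was at 231 and 226 CPM in M4, against 21.1 and 42.2 in M3, 14.3 and 15.1 in M2 and 5.35 and 8.19 in M1. GDF15, a stress-induced member of the TGF-beta family, was at 173 and 160.3 CPM in M4, 9.58 and 4.58 in M3, 14.8 and 15.6 in M2 and 8.88 and 12.5 in M1. GDF15 did not share the order of INHBA and HBEGF, its lowest library being an M3 library. PDGFB, a platelet-derived growth factor chain, and PAPPA2, a protease of IGF-binding proteins, were the remaining members of the group.

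A group of 12 genes encoded cytokines, ligands seen by immune cells, or their receptors. IL36B, an interleukin-36 agonist, had 1 count in a single M3 library, none in the other 5, and 445 and 287 counts in M4 (4.15 and 3.77 CPM). IL36RN and IL1RN encode the natural antagonists of the interleukin-36 and interleukin-1 receptors. IL36RN was at 5.37 and 2.71 CPM in M4, against 0.262 and 0.0232 in M3, 0.0294 and 0.115 in M2 and 0.124 and 0.0599 in M1. IL1RN was at 173 and 67.1 CPM in M4, 15.7 and 9.13 in M3, 13 and 11.6 in M2 and 12.4 and 4.01 in M1. Both antagonists were about 2 to 3 times higher in the first M4 library than in the other. The 3 further ligand genes of the chromosome 2 cluster that could be tested also rose in M4: IL1B by 5.32 (SE 0.368, adjusted p = 0.00016), IL1A by 3.598 (SE 0.472, adjusted p = 0.00208) and IL37, which stayed at or under 1.06 CPM, with an adjusted p of 0.00703. Of 4 receptor genes tested, 2 fell in M4. IL1R1 fell by 3.55 on the log2 scale (SE 0.275, adjusted p = 0.000225), from 55.3 to 85.03 CPM in M1 and M2, but it was already at 7.10 and 7.34 CPM in M3 and stood at 2.01 and 3.69 CPM in M4. IL1RL2, the interleukin-36 receptor, had no count in either M4 library against 0.0619 to 0.646 CPM elsewhere (adjusted p = 0.0133). The decoy receptor gene IL1R2 (0.22, SE 0.559, adjusted p = 0.801) and the shared subunit gene IL1RAP (-0.55, SE 0.391, adjusted p = 0.326) did not pass.

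IL24, a cytokine of the interleukin-10 family, was at 6.85 and 11.4 CPM in M4, against 0.684 and 0.463 in M3, 0.255 and 0.187 in M2 and 0.0371 and 0.144 in M1. CSF2, the gene of GM-CSF, was at 1.7 and 3.08 CPM in M4, 0.285 and 0.498 in M3 and 0.0685 and 0.144 in M2, with no count in M1. Under the labels it did not overlap among M1, M2 and M3 either, and M1 and M2 overlap under the exchange. IL13RA2, a decoy receptor for interleukin-13, was at 65.8 and 82.1 CPM in M4, 5.76 and 13.4 in M3, 1.2 and 1.15 in M2 and 0.21 and 2.06 in M1. IL21R, the interleukin-21 receptor, was at 3.61 and 5.21 CPM in M4, 1.06 and 0.37 in M3, 0.176 and 0.129 in M2 and at most 0.0495 in M1. In all 3 of IL24, IL13RA2 and IL21R the M3 libraries were the highest of those outside M4. CD274, which encodes PD-L1, lay between 1.02 and 1.61 CPM in all 6 other libraries and at 13.3 and 5.68 CPM in M4. PDCD1LG2, which encodes PD-L2, was at 8.98 and 4.01 CPM in M4, against 1.29 and 0.394 in M3, 0.186 and 0.187 in M2 and 0.0248 and 0.108 in M1. MICB, a stress ligand of the NKG2D receptor, was at 31.8 and 34.9 CPM in M4, 2.17 and 1.48 in M3, 6.34 and 6.3 in M2 and 5.28 and 3.31 in M1. Both of its M3 libraries lay below all M1 and M2 libraries. TNFSF9 (4-1BB ligand) and SEMA7A completed the list. Of 8 other B7 and MIC type ligands tested, ULBP2 rose in M4 by 1.04 (SE 0.219, adjusted p = 0.0113) and ULBP1 by 1.61 on the log2 scale (SE 0.47, adjusted p = 0.0363), but neither did without the first M4 library, and with any of 6 other libraries left out 1 of the 2 did.

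Intracellular immune signaling and host defense accounted for 13 genes. NOS3, the endothelial nitric oxide synthase, was at 0.0599 CPM or less in all 6 other libraries and at 11.6 and 9.01 CPM in M4, a ratio of 151. TNFAIP3, the A20 inhibitor of NF-kB, was at 100.05 and 66.6 CPM in M4, against 12 and 9.4 in M3, 8.82 and 10.2 in M2 and 7.97 and 9.12 in M1. CYBA, a subunit of the phagocyte NADPH oxidase, was at 0.157 CPM or less in the other libraries and at 2.43 and 1.34 CPM in M4. DEFB103B, an antimicrobial beta-defensin, had 2 counts in each M3 library, none in M1 or M2, and 983 and 150 counts in M4. It has the near-identical copy DEFB103A, and estimated counts may be divided between the copies. The NF-kB subunit NFKB2, the adaptors IRAK2, DAPP1, GAB2 and HSH2D, the signaling inhibitor SOCS1, the repressor PRDM1, the interferon-induced OASL and the peroxidase MPO were the others. Among 9 other NF-kB subunits and inhibitors tested, BIRC3 alone rose in M4 (log2 difference 1.95, SE 0.44, adjusted p = 0.0161).

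Squamous and epithelial barrier genes made up another 13. CLDN4, a sealing claudin, was at 400.4 and 278 CPM in M4, 50.8 and 39.8 in M3, 38.8 and 36.8 in M2 and 50.7 and 45.5 in M1. OCLN, the occludin gene, was at 42.4 and 34.4 CPM in M4, against 2.72 and 2.65 in M3, 0.482 and 0.617 in M2 and 6.71 and 4.27 in M1. The 2 genes differed outside M4, where CLDN4 ran from 36.8 to 50.8 CPM and the lowest OCLN libraries were those labelled M2. Of 9 other tight junction genes tested, 3 rose, among them the claudin genes CLDN7 (log2 difference 2.21, SE 0.181, adjusted p = 0.000272) and CLDN3, which stayed at or under 0.196 CPM. TRPV3, a warmth-sensitive channel of keratinocytes, was at 51.9 CPM in both M4 libraries, 0.308 and 2.16 in M3, 1.87 and 1.72 in M2 and 3.94 and 1.66 in M1. KRT34, a hair keratin, was at 0.057 CPM or less outside M4 and at 2.38 and 2.04 CPM in M4. KRT80 was at 59.9 and 35 CPM in M4 against 2.4 to 7.22 CPM elsewhere. The remaining genes of the group were those of the chromosome 1 and chromosome 19 runs described below, MUC16 (the CA-125 mucin), the deiminase PADI1 and the actin-binding POF1B.

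**Figure D2:**
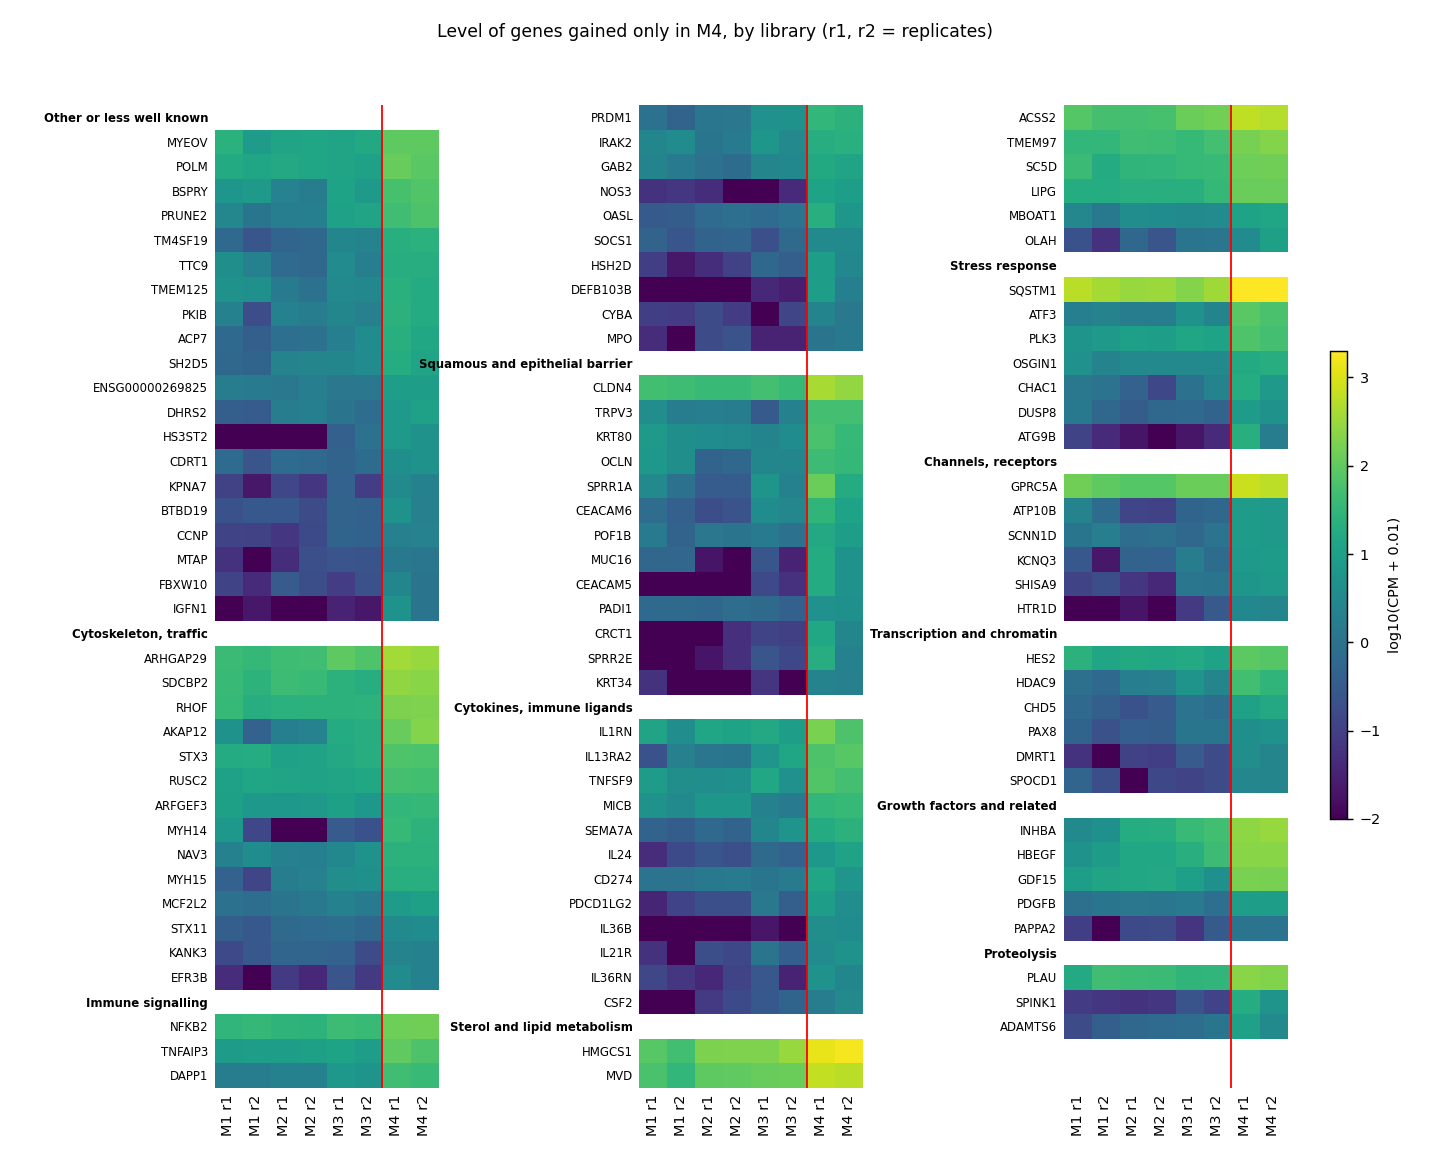
Level of the chosen genes (rows, by function group and then by the lower M4 library) in each of the 8 libraries (columns), as color on a log10(CPM + 0.01) scale, with a red line before the M4 columns. M4 holds the highest values in every row shown, as the rule requires.

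Cytoskeletal and membrane traffic genes numbered 14. ARHGAP29, a GTPase-activating protein, was at 359 and 299 CPM in M4, 98.9 and 70.6 in M3, 46 and 46.5 in M2 and 41.3 and 34.6 in M1. RHOF, a small GTPase of filopodia, was at 184 and 185 CPM in M4, against 25.9 and 26.2 in M3, 24.2 and 25.1 in M2 and 35.3 and 20.5 in M1. SDCBP2, which encodes syntenin-2, was at 259 and 226 CPM in M4 against 19.98 to 42.7 CPM elsewhere. Outside M4, the M1 levels of RHOF spanned those of M2 and M3, SDCBP2 was lowest in M3 and ARHGAP29 highest in M3. MYH15, a myosin heavy chain gene, was at 20.9 and 22.3 CPM in M4, 4.11 and 4.61 in M3, 1.69 and 2.02 in M2 and 0.446 and 0.12 in M1. MYH14, AKAP12, NAV3, STX3, STX11, KANK3, RUSC2, EFR3B, MCF2L2 and ARFGEF3 were the others.

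The 6 channel and receptor genes included GPRC5A, an orphan receptor induced by retinoic acid, at 751 and 582 CPM in M4, against 127 and 121 in M3, 78.1 and 80.4 in M2 and 143 and 96.4 in M1. HTR1D, a serotonin receptor, had no count in M1, was at 0.289 CPM or less in M2 and M3 and was at 3.03 and 2.62 CPM in M4. KCNQ3, a potassium channel, was at 7.12 and 8.54 CPM in M4, against 1.72 and 0.729 in M3, 0.47 and 0.445 in M2 and 0.272 and 0.012 in M1. SCNN1D, an epithelial sodium channel subunit, was at 8.4 and 7.37 CPM in M4 against 0.581 to 1.8 CPM elsewhere. ATP10B (a phospholipid flippase) and SHISA9 completed the group. PLAU, the urokinase gene, led the 3 proteolysis genes, at 229 and 195 CPM in M4, 29 and 30.6 in M3, 42.2 and 40.3 in M2 and 17.7 and 47.3 in M1. SPINK1, a trypsin inhibitor, was at 0.228 CPM or less outside M4 and at 19.5 and 5.51 CPM in M4, and ADAMTS6 was the last of the 3. Among 6 transcription and chromatin genes, CHD5, a chromatin remodeler, was at 10.7 and 16.1 CPM in M4, against 1.03 and 0.822 in M3, 0.206 and 0.316 in M2 and 0.644 and 0.383 in M1. HES2, PAX8, DMRT1, the deacetylase gene HDAC9 and SPOCD1 were the others.

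Less well-known genes or genes of other functions made up the last 20. IGFN1 had at most 2 counts in any library outside M4 and 556 and 83 counts in M4. HS3ST2, a heparan sulfate sulfotransferase, had no count in M1 or M2, and was at 0.41 and 0.972 CPM in M3 and 7.14 and 5.01 CPM in M4. Its RNA was therefore seen in both xenograft carcinoma lines and in neither of their predecessors at this depth. MTAP, the methylthioadenosine phosphorylase gene of 9p21, was at 0.239 CPM or less outside M4 and at 1.4 and 1.2 CPM in M4, while its neighbors CDKN2A and CDKN2B had no count in any library. MTAP (which shares exons with ENSG00000264545 and ERVFRD-3), CDRT1, FBXW10 and ENSG00000269825 (which shares exons with ZNF83) have related copies or shared exons. Their estimated counts are therefore uncertain. In all, 37 of the 108 genes share an exon with another annotated gene. The rest were TM4SF19, TMEM125, BTBD19, SH2D5, MYEOV, DHRS2, TTC9, ACP7, CCNP, PKIB, POLM, KPNA7, PRUNE2 and BSPRY. Gene families were set by patterns in the gene symbols, and protein domains were not used. By family, the set held 6 of 54 interleukin and interleukin receptor genes tested, 2 of 7 CEACAM genes, 2 of 26 keratins and 2 of 25 TGF-beta family genes. It held 0 of 436 genes with zinc finger symbols and 0 of 257 solute carriers, where 0.767% of all protein-coding genes tested belonged to the set. Only 28 of the 108 genes fell in any of 38 families, and no family was tested for excess.

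The genes were spread over the chromosomes, with 21 of them (19.4%) within 500 kb of another, in 9 runs. Chromosome 5 held 9 (1.37% of the protein-coding genes tested there), chromosome 1 held 18 (1.23%) and chromosome 9 held 7 (1.2%), against 0.767% of all 14088 tested, and chromosomes 13 and 21 held none. The same distance put 6 of 59 genes chosen for M3 (10.2%) and 2 of 43 chosen for M1 (4.65%) in runs. With 250 kb 18 genes were in runs and with 1 Mb 25. Shorter lists have fewer chances of neighbors, and the difference was not tested.

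**Figure D3:**
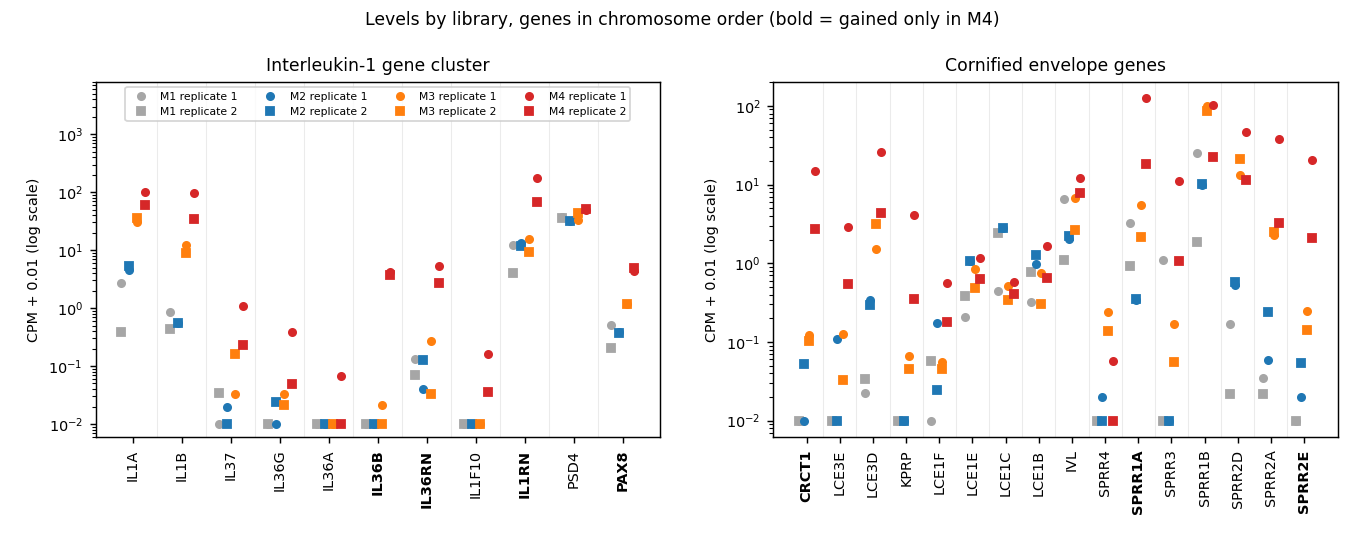
CPM plus 0.01 (vertical axis, log scale) in each library, a point per library colored by line, for genes of the interleukin-1 cluster and of the cornified envelope run in chromosome order (horizontal axis, chosen genes in bold). M4 points lie highest for IL1A and IL1B, and by the rule for the chosen IL36B, IL36RN and IL1RN. In the cornified envelope run the M4 replicate 1 points lie above those of replicate 2 for SPRR1A, SPRR2E and CRCT1.

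The longest run (chr1:152486958-153078660, GRCh37) lay in the epidermal differentiation complex. It held CRCT1, at 0.114 CPM or less outside M4 and 14.9 and 2.73 CPM in M4. SPRR1A, a cornified envelope precursor whose promoter is printed above, was at 126 and 18.2 CPM in M4, 5.48 and 2.14 in M3, 0.336 and 0.338 in M2 and 3.26 and 0.922 in M1. SPRR2E was at 0.239 CPM or less outside M4 and at 20.4 and 2.08 CPM in M4, and it resembles other SPRR2 genes closely enough for reads to be shared. All 3 were over 5 times higher in the first M4 library than in the other. Of 13 other protein-coding genes tested in the interval, 7 rose in M4. LCE3D, a late cornified envelope gene, was at 25.7 and 4.34 CPM in M4 against 0.0124 to 3.11 CPM elsewhere (log2 difference 5.87, SE 0.591, adjusted p = 0.000645). SPRR2A was at 37.9 and 3.22 CPM in M4 against 0.012 to 2.45 CPM elsewhere (log2 difference 6.71, SE 0.831, adjusted p = 0.00171). SPRR3, SPRR2D and LCE3E rose too, with adjusted p values of 0.0195, 0.00121 and 0.00656, although the lower M4 library of SPRR2D (11.3 CPM) lay below both M3 libraries and that of SPRR3 (1.06 CPM) below an M1 library. Without the first M4 library 4 of the 13 rose, SPRR3 (4.54) and LCE3E (4.82) being among those that did not pass.

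The run with the most members (chr2:113779666-114036498) held IL36B, IL36RN, IL1RN and PAX8. PAX8, a developmental transcription factor, was at 4.38 and 4.94 CPM in M4, against 1.15 and 1.16 in M3, 0.382 and 0.359 in M2 and 0.508 and 0.192 in M1. PAX8-AS1, which overlaps it on the other strand, rose by 4.96 on the log2 scale (SE 0.327, adjusted p = 0.000117), and without a stated strand in the counting reads of the pair cannot be told apart. PSD4, the 1 other protein-coding gene tested in the interval, did not pass the test. On chromosome 19 (chr19:42212504-42276116), CEACAM5, the carcinoembryonic antigen gene, was at 0.137 CPM or less outside M4 and at 18 and 4.96 CPM in M4. Its neighbor CEACAM6, a related adhesion molecule, was at 29.7 and 12 CPM in M4, 3.78 and 2.81 in M3, 0.176 and 0.215 in M2 and 0.792 and 0.419 in M1. Both had their next highest values in M3.

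NOS3 and ATG9B overlap on opposite strands (chr7:150688105-150721586), and their reads cannot be told apart without strand. The ratio of the first to the other M4 library was unlike, at 11.6 to 9.01 CPM for NOS3 and 20.8 to 1.69 CPM for ATG9B. CD274 and PDCD1LG2 lay side by side (chr9:5450503-5571282), and both were over 2 times higher in the first M4 library than in the other. MVD and CYBA were also adjacent (chr16:88709683-88729569). PLK3, a polo-like kinase, and BTBD19 were neighbors (chr1:45266049-45281257) and DYNLT4, the 1 other gene tested there, rose as well (log2 difference 3.73, SE 0.577, adjusted p = 0.00331), but not without the first M4 library (2.54). PLK3 was at 68 and 52.2 CPM in M4, against 13.2 and 11.7 in M3, 9.91 and 9.44 in M2 and 5.56 and 6.89 in M1. BTBD19 was at 0.158 to 0.467 CPM outside M4 and 5.11 and 2.05 CPM in M4. The remaining runs paired CHD5 with HES2 (chr1:6161847-6484730), where 1 of 5 other genes rose, and TNFAIP3 with ARFGEF3 (chr6:138188351-138665800), where PERP did not pass. HES2, a relative of the Hes repressors, was at 91.8 and 80.9 CPM in M4 against 11.9 to 25.6 CPM elsewhere. ARFGEF3, a guanine nucleotide exchange factor relative, was at 31.8 and 34.4 CPM in M4 against 6.57 to 10.4 CPM elsewhere.

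Genes next to the chosen ones were not picked by the rule and could be tested. Of 296 genes starting within 100 kb of a chosen gene, 41 rose in M4 (13.9%) and 11 fell, beside the 7.58% of all genes tested that rose. Leaving out the 20 that share an exon with a chosen gene, of which 8 rose, 33 of 276 did (11.96%). The median log2 difference of the 296 was 0.21, against -0.00 over all genes tested. Without the first M4 library the count fell to 21. Besides those of the chromosome 1 run, the neighbors with the largest fitted changes were LINC01269 near TTC9, ARHGAP29-AS1, KRTAP5-AS1 near DUSP8, ENSG00000260777 near TMEM97, PGAM2 near POLM, CLDN3 near CLDN4 and KIF17 near SH2D5. All 7 stayed under 0.5 CPM in every library, and all but LINC01269 lost the call when 1 of the M4 libraries was left out. MYH16, a pseudogene that shares an exon with KPNA7 on the other strand, was at 4.69 and 5.49 CPM in M4 against 0.012 to 1.45 CPM elsewhere (log2 difference 3.98, SE 0.497, adjusted p = 0.00143). Without a stated strand, reads of this pair cannot be told apart.

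The rule capped the level of each gene in M1, M2 and M3 but did not use the differences among those lines, so these were tested. All 108 genes passed the filter on low counts, which the M4 libraries alone could bring about, and 96 passed it when the M4 libraries were left out of the fit. The other 12 were ATG9B, CEACAM5, CRCT1, CYBA, DEFB103B, EFR3B, HTR1D, IGFN1, IL36B, KRT34, NOS3 and SPINK1. They stay in the counts out of 108 below, where HTR1D alone of them passed the test, in M3 against M1 under the labels. In M3 against M1, 33 of the 108 rose (30.6%) where 8.02% of 18431 genes tested did, and 1 fell where 5.51% did. With the M4 libraries left out of the fit, IL13RA2, IL24, KCNQ3, HSH2D, DMRT1, PAX8, MCF2L2 and CCNP no longer passed as higher in M3 against M1. HTR1D was not tested in that fit, and SPRR2E passed there although it had not in the main fit. In M3 against M2, 19 rose (17.6%) where 2.95% did, and 1 fell where 1.2% did. In M2 against M1, 6 rose (5.56%) where 2.26% did, and 5 fell (4.63%) where 1.11% did. The median log2 difference of the 108 was 0.86 in M3 against M1, 1.16 in M3 against M2 and 0.12 in M2 against M1, and over all genes tested it was -0.02, -0.00 and -0.04. Under the other assignment of the 2 doubtful libraries, 4 rose in M3 against M1 (DAPP1, HS3ST2, PRUNE2 and SEMA7A), 7 in M3 against M2 (these 4, ACSS2, PRDM1 and TM4SF19) and none in M2 against M1, so that every other call of a chosen gene among these lines rests on the labels. Leaving out either M2 library left 0 or 1 in M3 against M2 and none in M2 against M1. Without the first M3 library 20 rose in M3 against M1. M3 was grown without EGF and M1 and M2 with it.

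**Figure D4:**
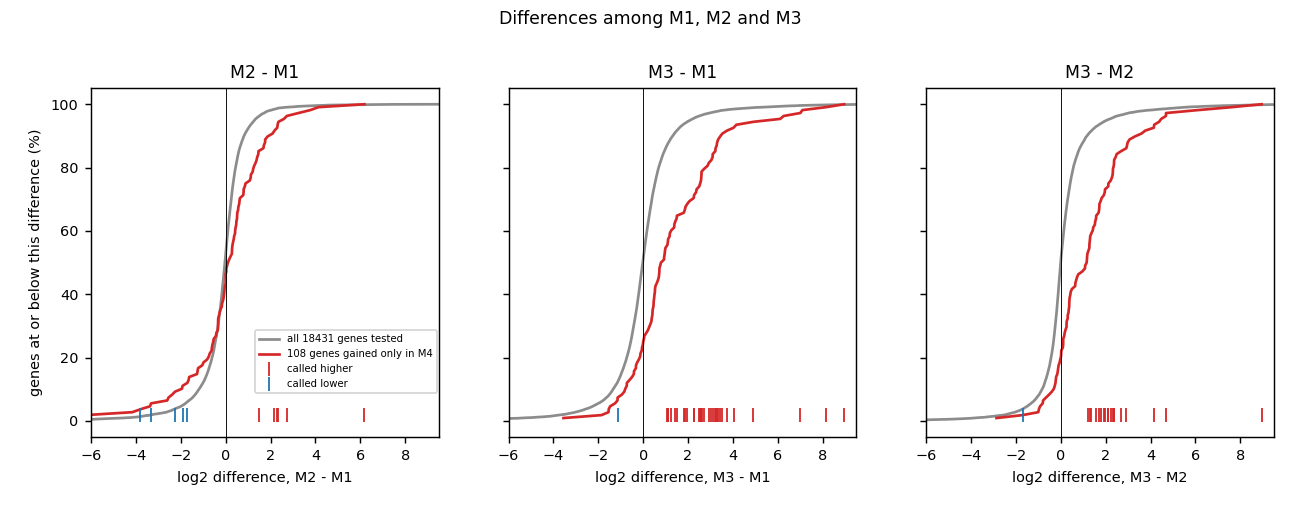
Cumulative percentage of genes (vertical axis) by log2 difference between lines (horizontal axis) for the 108 chosen genes in red and all 18431 genes tested in grey, with ticks at chosen genes that passed the test in either direction. The red curve lies to the right of the grey one in both M3 panels, where the medians of the chosen genes are 0.86 and 1.16.

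Under the labels, INHBA rose by 2.30 in M2 against M1 (SE 0.227, adjusted p = 0.00605), 3.53 in M3 against M1 (SE 0.237, adjusted p = 0.000329) and 1.23 in M3 against M2 (SE 0.216, adjusted p = 0.0193) on the log2 scale. Under the other assignment none of the 3 passed, at 0.12 (adjusted p = 1), 2.03 (adjusted p = 0.264) and 1.90 (adjusted p = 0.301). HMGCS1 rose by 1.46 in M2 against M1 (SE 0.278, adjusted p = 0.0284) and by 1.96 in M3 against M1 (SE 0.282, adjusted p = 0.00372), and under the other assignment these were -0.18 and 0.96 and did not pass. The sterol genes MVD, ACSS2 and OLAH also rose in M3 against M1. HBEGF rose by 2.27 in M3 against M1 (SE 0.308, adjusted p = 0.00306). Of the genes without a count in M1, HS3ST2 (adjusted p = 0.00415) and CSF2 (adjusted p = 0.00473) rose in M3 against M1. CSF2 passed in M2 against M1 too (adjusted p = 0.0466), and under the other assignment it passed in neither, at 0.90 and 3.43. HTR1D is counted among the 33, but at 0 to 25 counts in each library outside M4 it was tested only because of its M4 counts. By group, 6 of the 12 cytokine and ligand genes rose in M3 against M1 under the labels, as did 4 of 9 sterol and lipid genes. So did 3 of 6 channel, 3 of 6 transcription, 2 of 5 growth factor, 7 of 20 other, 3 of 13 immune signaling and 3 of 14 cytoskeletal genes. The counts were 1 of 13 barrier, 1 of 7 stress and 0 of 3 proteolysis genes, beside the 8.02% of all genes. Groups hold genes tested only because of their M4 counts, among them HTR1D (channel), CEACAM5, CRCT1 and KRT34 (barrier) and ATG9B (stress). The group counts also depend on the M4 libraries being in the fit. Without them, SHISA9 alone of the channel genes and HDAC9 alone of the transcription genes rose in M3 against M1. IL13RA2 and IL24 dropped out of the cytokine count, and SPRR2E joined CEACAM6 among the barrier genes. Under the other assignment, SEMA7A alone of the cytokine, sterol, barrier and stress genes rose in M3 against M1. Groups were not compared by a test.

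SEMA7A, a membrane-anchored semaphorin, was at 18.1 and 25.2 CPM in M4, 2.69 and 5.44 in M3, 0.626 and 0.474 in M2 and 0.483 and 0.347 in M1. It rose in M3 against M1 by 3.34 (SE 0.399, adjusted p = 0.0019) and against M2 by 2.92 on the log2 scale (SE 0.389, adjusted p = 0.00754). PRDM1, a repressor known from plasma cells and keratinocytes, rose by 2.92 (SE 0.326, adjusted p = 0.00148) and 2.12 (SE 0.313, adjusted p = 0.0107) in the same comparisons. SHISA9, CEACAM6, PRUNE2, TM4SF19, DAPP1, ACSS2, ACP7, CCNP and HS3ST2 rose in both too, which with INHBA makes 12 genes. Of the 12, DAPP1, HS3ST2, PRUNE2 and SEMA7A rose in both under the other assignment as well, and 9 did with M4 left out of the fit. IL21R (4.91, SE 0.993, adjusted p = 0.013), MYH15 (4.03, SE 0.495, adjusted p = 0.00215), PDCD1LG2 (3.73, SE 0.867, adjusted p = 0.0214), HSH2D (3.43, SE 0.893, adjusted p = 0.0318) and DMRT1 (3.29, SE 0.94, adjusted p = 0.0431) rose in M3 against M1. The last 3 lost the call without the first M3 library, at 2.53, 2.98 and 2.56 on the log2 scale.

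Under the labels, other genes followed a different course before M4. OCLN fell in M2 against M1 by 3.32 on the log2 scale (SE 0.284, adjusted p = 0.00605) and rose in M3 against M2 by 2.38 (SE 0.278, adjusted p = 0.00509). TMEM125, TTC9 and BSPRY likewise fell in M2 against M1, by 1.92, 2.25 and 1.71 (adjusted p values 0.0125, 0.0323 and 0.0224), and rose in M3 against M2, by 1.31, 2.12 and 2.36 (0.038, 0.0364 and 0.00716). Under the other assignment all 8 of these calls ended, OCLN being at -0.49 in M2 against M1 and 0.18 in M3 against M2. ATP10B, at 2.36 and 0.754 CPM in M1, fell in M2 by 3.80 (SE 0.575, adjusted p = 0.0134). DHRS2 (2.35, SE 0.388, adjusted p = 0.018), SH2D5 (2.17, SE 0.294, adjusted p = 0.00994) and MYH15 (2.72, SE 0.48, adjusted p = 0.0219) rose in M2 against M1, and these 4 calls ended under the other assignment too. MICB was the gene that fell in M3, by 1.14 against M1 (SE 0.298, adjusted p = 0.0323) and 1.70 against M2 (SE 0.301, adjusted p = 0.0197), and it stood at 31.8 and 34.9 CPM in M4. The fall of MICB did not pass without the second M3 library, at -0.82 and -1.39 on the log2 scale, or without the first M1 library, at -0.80 against M1. Under the other assignment neither fall passed, at -1.57 against M1 (adjusted p = 0.101) and -1.31 against M2 (adjusted p = 0.149). In all, 40 of the 108 genes rose in M3 against M1 or M2, and 66 passed the test in none of the 3 comparisons. SQSTM1, GDF15, SC5D and CD274 were among these 66.

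The M4 duplicates did not hold the chosen genes at equal levels. The first library was the higher one for 71 of the 108, with a median ratio of 1.14, against 0.998 over 11224 other protein-coding genes at 1 CPM or more in both M4 libraries. It was over 2 times the other library for 19 genes (17.6%) against 261 of the 11224 (2.33%), and the reverse held for 1 gene, OLAH, against 79 (0.704%). The 19 genes included 6 of the 13 barrier genes (SPRR1A, SPRR2E, CRCT1, CEACAM5, CEACAM6 and MUC16) and none of the 9 sterol and lipid genes, and no difference between groups was tested. They also held 3 of the 12 cytokine and ligand genes (IL1RN, CD274 and PDCD1LG2), DEFB103B, OASL and HSH2D, and SPINK1, ADAMTS6, ATG9B, CHAC1, IGFN1, BTBD19 and FBXW10. The median ratio of the first to the other library was 1.72 in barrier genes, 1.32 in immune signaling genes, 1.04 in cytoskeletal genes and 0.927 in sterol and lipid genes. Because the rule used the lower of the M4 libraries, genes that differ between the duplicates were kept only where both passed, and without the second library 229 genes would have met it. Summed over the 108 genes, M4 held 11418 and 10667 CPM and the other libraries 1201 to 2001 CPM.

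**Figure D5:**
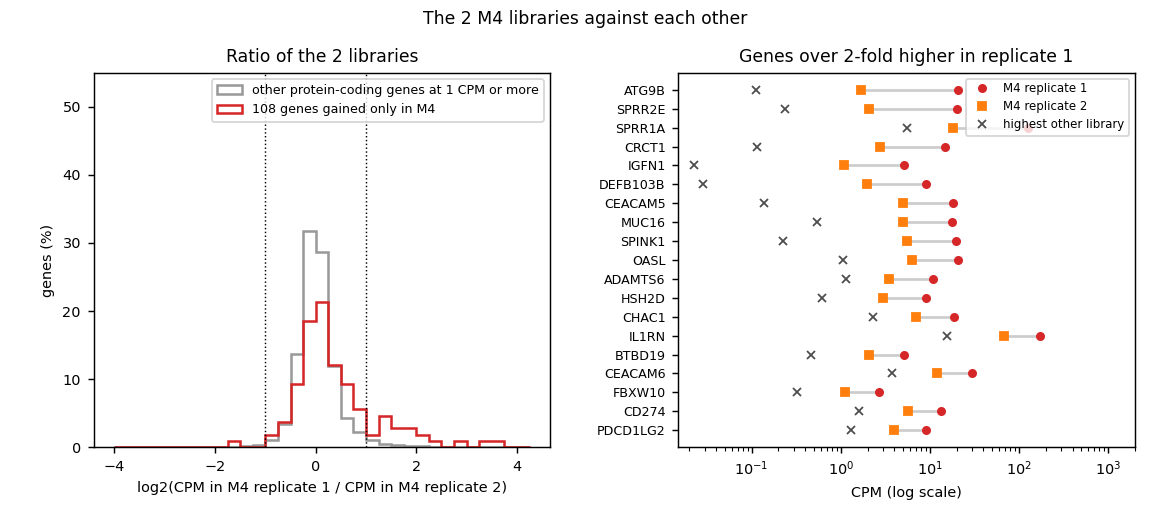
Left, percentage of genes (vertical axis) by log2 ratio of M4 replicate 1 to M4 replicate 2 (horizontal axis) for the 108 chosen genes in red and other protein-coding genes at 1 CPM or more in grey, with dotted lines at a 2-fold difference. Right, CPM (log scale) of the 19 genes over 2-fold higher in replicate 1, with both M4 libraries and the highest other library as separate marks, and SPRR2E at 20.4 and 2.08 CPM among the widest apart.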

How the data were processed

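Poly A+ RNA of 4 cell lines, M1 to M4, was sequenced in 8 libraries, 2 per line, with groups and replicate numbers from the sample labels. The authors trimmed paired-end reads with Trimmomatic, aligned them with STAR to hg19 and deposited RSEM expected counts per gene on GENCODE v19, not normalized. Tool versions and the strand setting are not given in the sources used here. Of the values, 12.8% were not whole, and expected counts were rounded for the tests. Gene classes and GRCh37 coordinates came from GENCODE release 44, which matched 53454 of 56632 genes. CPM used the sum of each library.

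The fit was edgeR 4.0.16's quasi-likelihood test (R 4.3.3, limma 3.58.1, TMM, filterByExpr, robust, 1 coefficient per line, all 8 libraries), with Benjamini-Hochberg adjustment over 18431 genes and a call at adjusted p under 0.05 and a change of over 1 on the log2 scale. SE is that of the fitted log2 difference. TMM moved the M4 contrast by -0.078 on the log2 scale against library totals. DESeq2 1.42.0, other filters and thresholds, each library left out, a replicate block and the exchange of the doubtful libraries were alternatives. Scripts (Python 3.11.15, pandas 2.3.3, numpy 2.4.6) were tested on simulated data. With 2 libraries per line p-values rest on a shared estimate of the spread. Total counts were 69669970 to 107350344 per library, and counts of a few reads carry large counting errors.

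The members' own M4 differences were used to choose them and were not tested. The set and the lists were chosen with earlier results of these data known, and function groups and pathway lists were written after the genes were seen. Genes were named with values by rule: the 15 highest in M4, the 15 with the largest ratio, all in runs or in families with at least 3 of the set, up to 10 per contrast by size, those at the fold limit, up to 15 risen neighbors and HRAS. Other genes are named by function, and the few given with values beyond the rule (SC5D, KRT80, OCLN, MTAP and list genes outside the set) were chosen after their values were seen. A few results are not reported here.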

Additional observations from a re-analysis of the deposited data

How the results depend on the processing

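The set held 236 genes at a fold limit of 2 and 45 at 5, and 108 to 229 with any library left out, the highest without M4 replicate 2. Exchanging M1 replicate 2 and M2 replicate 1 changed the comparisons among M1, M2 and M3 most. All genes higher and lower went to 0 and 0 in M2 against M1, 146 and 73 in M3 against M1, and 136 and 78 in M3 against M2. Chosen genes higher and lower went to 0 and 0, 4 and 0, and 7 and 0. In M2 against M1, MYH15 (-0.0199), HMGCS1 (-0.18) and BSPRY (0.13) changed sign, and 1 of the B7 and MIC ligands rose in M4. With no filter, all genes were 731 and 1057 in M2 against M1, 1561 lower in M3 against M1, and 1296 and 584 in M3 against M2, and chosen genes 14 and 14, 5 lower, and 45 and 2. With DESeq2, all genes were 712 lower in M2 against M1 and 1018 and 469 in M3 against M2, and chosen genes 10 and 11, 2 lower in M3 against M1, and 35 and 2 in M3 against M2. With adjusted p alone, 2383 and 1535 genes passed in M3 against M1, with 2 chosen genes lower, 71 neighbors rose and 5 tight junction genes rose. Leaving M4 out of the fit gave 3 chosen genes lower in M2 against M1, 0 lower in M3 against M1, and 12 higher and 0 lower in M3 against M2. That fit used fewer samples, and the cause of the other changes was not tested.

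With 1 library left out, all genes higher and lower ranged over 0 to 479 and 0 to 397 in M2 against M1, 1201 to 1411 and 551 to 887 in M3 against M1, and 47 to 773 and 34 to 300 in M3 against M2. Chosen genes ranged over 0 to 9 and 0 to 7, 20 to 31 and 0 to 4, and 0 to 27 and 0 to 3. The low ends came without M2 replicate 1 or 2, except 20, which came without M3 replicate 1, and 551, without M3 replicate 2. A line left with 1 library was assumed to vary like the others. Risen neighbors numbered 21 to 48 with a library left out, 21 of 123 within 50 kb and 126 of 1341 within 500 kb. In 150 bases before the start 7 promoters held the AP-1 motif. Without a filter 5 interleukin-1 cluster genes rose. At 1 CPM in 2 libraries 1 B7 and MIC ligand and 4 cornified envelope genes rose, and with a library left out 0 to 2 and 4 to 8 did.

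Deviations of same-numbered libraries correlated at -0.0244 to 0.1221 and over 0.1 for M3 with M4 alone, and the replicate numbers were not used as pairs. The line of M1 replicate 2 and M2 replicate 1 is in doubt, so this check cannot show that pairing is absent. With a replicate block, chosen genes higher and lower were 8 and 6, 33 and 1, and 18 and 1 in the 3 comparisons, 41 neighbors rose, and 1 B7 and MIC ligand rose. Of 628 recomputed values of 48 named single-gene results, 490 kept direction and side of the threshold, 135 kept direction but no longer passed, and 3 changed sign. Depth limits genes under about 0.1 CPM, where a library holds few reads.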

Other observations

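Outside the protein-coding genes, 32 non-coding or unlisted genes met the same limits in M4, which would make 140 in all. LINC03040, a long non-coding RNA gene on chromosome 6, stood at 39.7 and 55.5 CPM in M4, 0.365 and 0.162 in M3, 2.63 and 1.62 in M2 and 0.421 and 0.503 in M1. LINC00520, on chromosome 14, was at 0.65 CPM or less outside M4 and at 13.2 and 4.86 CPM in M4. LNCAROD, on chromosome 10, was at 3.26 to 10.4 CPM outside M4 and at 35.9 and 36.2 CPM in M4. These genes were picked for mention after their values were seen, and their M4 differences are descriptions with no test.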
